A study of Arabidopsis thaliana with 6 samples.

Results

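Calmodulin-like (CML) genes that respond to touch in Arabidopsis were followed in shoot apices of WT plants and of plants labelled *val1* and *val2*. The set holds 10 genes, taken by their gene identifiers from a list drawn up with earlier results of these data known: *TCH2* (AT5G37770, also named *CML24*), *TCH3* (AT2G41100, also named *CML12*), *CML9* (AT3G51920), *CML23* (AT1G66400), *CML37* (AT5G42380), *CML39* (AT1G76640), *CML40* (AT3G01830), *CML41* (AT3G50770), *CML42* (AT4G20780) and *CML43* (AT5G44460). All 10 are among the 24292 genes of the count table, and 9 of them passed the filter on low counts and were tested, while *CML43* was not. The study compared WT (Col-0) with 2 single mutants, *val1-2* (here *val1*) and *val2-1* (here *val2*), with 2 libraries per genotype. Each library was made from polyA RNA of 0.5 g of dissected shoot apices, so that many apices were pooled in 1 library. All groups were harvested at an age of 6 wk after growth at 22 °C under SD, with 8 h of light and 16 h of dark. The study calls the replicates biological, and the labels give them only a number, so the p-values measure the spread between these libraries.

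Calcium ions rise in the cytosol within seconds of touch, wounding, cold or attack by a pathogen, and calmodulins and CML proteins read this rise. They bind calcium through EF-hand motifs, change shape and then bind other proteins. The *TCH* genes were found in Arabidopsis as transcripts that accumulate after plants are touched: *TCH1* is the calmodulin gene *CAM2*, *TCH2* and *TCH3* encode CML proteins, and *TCH4* encodes a xyloglucan-modifying enzyme of the cell wall. CAMTA proteins, which bind calmodulin, are transcription factors that recognise CGCG-box sequences in promoters of rapidly induced stress genes. VAL1 and VAL2 are B3-domain repressors that bind the RY motif CATGCA and recruit Polycomb proteins.

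The libraries held between 22635808 and 33474422 estimated counts. Expression is given as CPM, counts scaled to library size after TMM normalization, and a change as the log2 fold change with its standard error. A gene passed the test at an adjusted p below 0.05 (quasi-likelihood F test of edgeR, adjusted by Benjamini-Hochberg over the 21140 genes tested), and a DEG also had a change of at least 2-fold. *VAL1* lay at 40.3 and 55.4 CPM in the WT replicates, and at 12.5 and 15.7 CPM in those of *val1*. *VAL2* lay at 39.9 and 40.9 CPM in WT but at 149.8 and 163.9 CPM in *val2*, so the latter are called the libraries labelled *val2*. Of the shoot apex markers, *STM*, *KNAT1* and *CLV1* lay between 38.7 and 70.7 CPM in every library. *CLV3* was at 0.195 CPM or less, and *WUS* is not among the genes of the count table. Of 4 flower markers and 4 root markers, 2 of each are in the count table. Each of these pairs summed to 0.851 CPM or less in every library.

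The bases just before the annotated start of 4 of the genes are shown because they separate the members by the CGCG box that CAMTA proteins bind. *TCH2* and *CML23*, which are close paralogs, carry the box. *CML9* carries it as well. *CML37* does not. The windows hold 300 bases of the RefSeq TAIR10.1 genome and are written 5′ to 3′ on the strand of the gene. They lie at chr5:14999620-14999919 (minus strand, *TCH2*), chr1:24771394-24771693 (minus strand, *CML23*), chr3:19269659-19269958 (minus strand, *CML9*) and chr5:16943821-16944120 (minus strand, *CML37*). Capitals mark CGCG and CGCGTT on either strand, which overlap each other where both occur.
TCH2: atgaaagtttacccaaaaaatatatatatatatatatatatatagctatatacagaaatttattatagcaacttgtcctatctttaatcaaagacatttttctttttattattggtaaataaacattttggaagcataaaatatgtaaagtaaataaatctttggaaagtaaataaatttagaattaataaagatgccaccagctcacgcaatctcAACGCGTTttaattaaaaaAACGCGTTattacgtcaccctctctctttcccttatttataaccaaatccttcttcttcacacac
CML23: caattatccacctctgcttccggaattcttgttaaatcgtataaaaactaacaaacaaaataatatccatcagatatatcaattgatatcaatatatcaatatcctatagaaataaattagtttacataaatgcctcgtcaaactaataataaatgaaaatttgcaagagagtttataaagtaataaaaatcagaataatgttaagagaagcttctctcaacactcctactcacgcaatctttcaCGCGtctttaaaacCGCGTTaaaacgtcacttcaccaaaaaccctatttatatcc
CML9: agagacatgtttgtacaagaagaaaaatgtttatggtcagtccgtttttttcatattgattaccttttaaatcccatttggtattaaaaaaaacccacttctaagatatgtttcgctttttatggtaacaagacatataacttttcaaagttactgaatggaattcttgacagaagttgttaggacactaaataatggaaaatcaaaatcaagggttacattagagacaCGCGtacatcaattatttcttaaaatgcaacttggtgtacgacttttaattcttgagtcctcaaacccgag
CML37: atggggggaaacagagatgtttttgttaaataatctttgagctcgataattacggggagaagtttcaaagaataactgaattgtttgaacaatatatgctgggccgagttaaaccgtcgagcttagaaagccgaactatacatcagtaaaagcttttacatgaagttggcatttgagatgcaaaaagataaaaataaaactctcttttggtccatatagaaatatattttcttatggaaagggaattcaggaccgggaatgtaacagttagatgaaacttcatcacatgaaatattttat

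The motif CGCG was found, on either strand, in the windows of 4 of the 10 genes, *TCH2*, *CML9*, *CML23* and *CML40*. It was found in 12.6% of the windows of the same length before 22041 protein-coding genes of the count table. The longer form CGCGTT was found in *TCH2* and *CML23*, and in 3.33% of all windows. In *TCH2* the 2 boxes began 82 and 63 bases before the start, and in *CML23* they began 55 and 41 bases before it. ACGCGT, which contains CGCG, was found in *TCH2*, *CML9* and *CML23*, and in 2.17% of all windows. The RY motif CATGCA was found in *TCH3* only, against 9.79% of all windows. It lay at the far end of the window, inside the neighbouring gene AT2G41090, which ends 37 bases before *TCH3*. The G-box CACGTG was found in 0 of the 10 windows, against 7.87% of all windows. Each match is a description of these letters in these windows, and whether a motif bears on a change in expression was not tested.

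In WT apices the set ranged from a very abundant transcript to a gene with no counts. Per kilobase of annotated exon, *TCH3* stood first with 700.4 ± 35.2 CPM (SD, n = 2), followed by *TCH2* with 198.9 ± 5.89 and *CML37* with 179 ± 12.7. *CML9* had 119.8 ± 2.56, *CML40* 65.0 ± 2.53 and *CML23* 33.0 ± 0.935 CPM per kb. *CML39* had 21.0 ± 4.36 and *CML42* 14.7 ± 3.26 CPM per kb, *CML41* had 0.947 ± 0.0559, and *CML43* was at 0. The 2 replicates of neighbours in this order did not overlap, although *CML39* at its lower value of 17.9 was close to *CML42* at its higher value of 17.0. *TCH3* alone gave 64.8% and 67.4% of the counts of the 10 genes in the WT replicates.

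In *val1* the order changed at the top. Per kilobase of annotated exon, *TCH2* stood first with 166 ± 2.44 CPM per kb (SD, n = 2) and *TCH3* second with 135 ± 6.49. This order depends on the length used. On the deposited TPM values *TCH2* (646 and 352) and *TCH3* (435 and 468) overlapped in *val1*. *CML37*, with 70.6 and 75.4 CPM per kb, overlapped *CML9*, with 64.2 and 70.7. *CML23*, with 35.2 ± 3.36 CPM per kb, stood above *CML40*, with 24.3 ± 3.64, the reverse of their order in WT. In the libraries labelled *val2* the order per kilobase of exon was that of WT. On the deposited TPM values 1 pair differed. *CML40* (190 and 177) lay above *CML9* (162 and 154) in the libraries labelled *val2*. In WT *CML9* (191 and 180) lay above *CML40* (129 and 120). *TCH3* gave 36.1% and 38.5% of the counts of the 10 genes in *val1*, and 49.4% and 53.6% in the libraries labelled *val2*. Together the 10 genes took 0.251% and 0.253% of all counts in WT, 0.101% and 0.0998% in *val1*, and 0.199% and 0.206% in the libraries labelled *val2*.

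**Figure D1:**
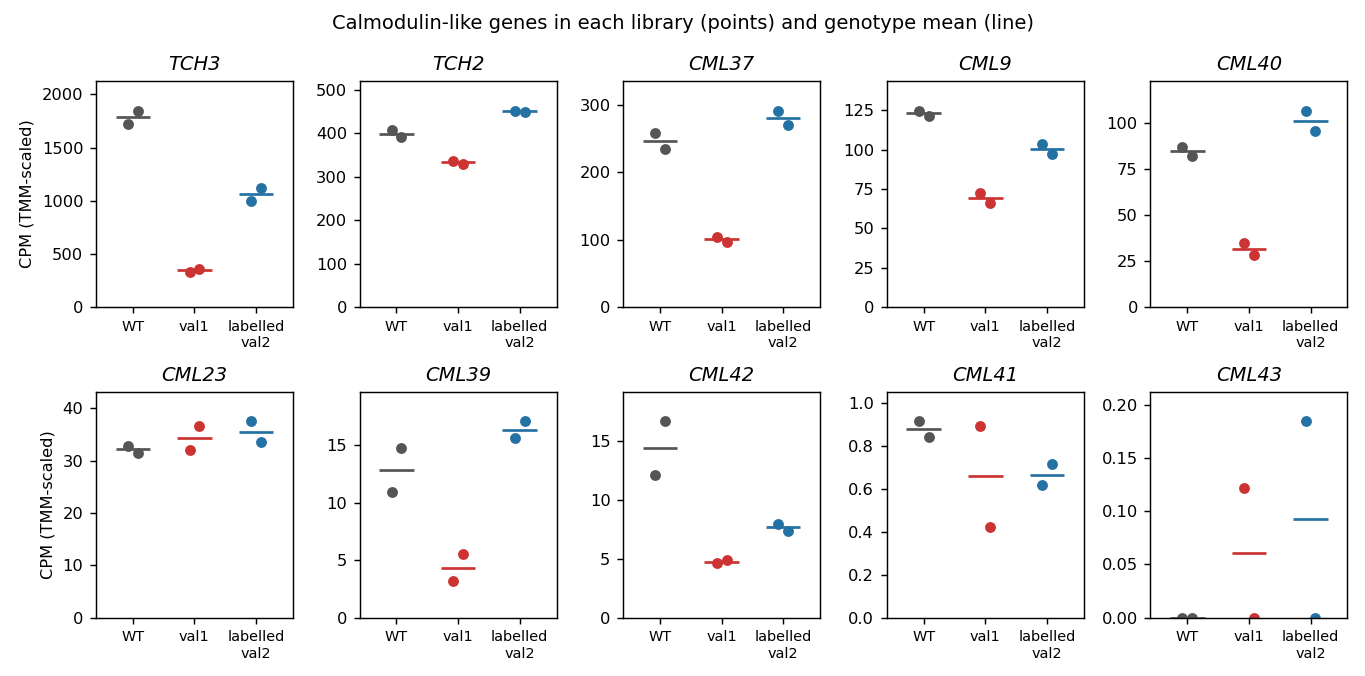
Level of each of the 10 touch-responsive CML genes in CPM after TMM scaling (vertical axes start at 0 and differ between panels), with 1 point for each of the 2 libraries per genotype and a line at their mean. *TCH3* lies between 333 and 357 CPM in *val1* and between 1721 and 1848 CPM in WT, while *CML23* lies between 31.5 and 37.5 CPM in all 6 libraries.

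*val1* was compared with WT to ask how the loss of VAL1 changes the shoot apex. Of the 9 tested genes, 7 fell in *val1* and 0 rose, where 22.1% of all genes tested fell and 23.6% rose. The calls of *TCH3*, *CML9*, *CML37*, *CML39*, *CML40* and *CML42* held under every alternative tried that tests them, with an adjusted p of 0.0066 at most (*CML39*). The DEGs were *TCH3*, *CML37*, *CML39*, *CML40* and *CML42*, all lower, or 5 of 9, where 9.81% of all genes tested were lower DEGs and 5.89% were higher DEGs. In the 7 genes that fell, both *val1* libraries lay below both WT libraries, as in 34.3% of all genes tested. The median log2 fold change of the 9 genes was -1.30, against 0.038 over all genes tested. In RNA of whole apices, fewer cells that express a gene and less RNA per cell cannot be told apart.

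*TCH3* encodes a CML protein with more EF hands than calmodulin. WT apices had 1721 and 1848 CPM of *TCH3*, and those of *val1* 333 and 357 CPM. This was the largest fall of the 9 members tested, 5.17-fold or -2.37 on the log2 scale (standard error 0.0843, edgeR adjusted p = 6.73e-07). The libraries labelled *val2* lay between the other groups, at 993 and 1123 CPM, and no 2 groups overlapped.

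*CML37*, *CML39* and *CML40* moved in a second way, with low values in *val1* alone. *CML37* is induced by wounding and drought and acts in jasmonate-dependent defence against insects. WT had 259 and 234 CPM, *val1* 104 and 97.0 and the libraries labelled *val2* 292 and 270.2. *CML37* fell 2.46-fold in *val1*, by 1.30 on the log2 scale (standard error 0.0848, edgeR adjusted p = 5.36e-06). For *CML40*, which encodes an EF-hand protein, CPM was 87.0 and 82.3 in WT, 35.0 and 28.3 in *val1*, and 107 and 95.5 in the libraries labelled *val2*. It fell 2.68-fold in *val1*, with a log2 fold change of -1.42 (standard error 0.11, edgeR adjusted p = 1.33e-05). For *CML39*, which is involved in seedling establishment, it was 10.96 and 14.7 in WT, 3.16 and 5.52 in *val1*, and 15.6 and 17.1 in the libraries labelled *val2*. With a log2 fold change of -1.55 (standard error 0.239, edgeR adjusted p = 0.000771), it fell 2.93-fold in *val1*. In all 3 genes the *val1* libraries lay below the other 4 libraries.

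*CML42* is known from trichome branching and from the response to herbivores. The WT replicates had 12.2 and 16.7 CPM, those of *val1* 4.62 and 4.87 and those labelled *val2* 7.94 and 7.39, and the 3 groups did not overlap. The fall of *CML42* in *val1* was 3.04-fold, or -1.60 on the log2 scale (standard error 0.171, edgeR adjusted p = 8.79e-05). *CML9*, which acts in responses to salt, abscisic acid and bacterial flagellin, fell by less than 2-fold. Its values were 125 and 121 CPM in WT, 72.6 and 65.9 CPM in *val1* and 103 and 97.4 CPM in the libraries labelled *val2*, again without overlap between groups. The log2 fold change of *CML9* was -0.83 in *val1* (standard error 0.0789, edgeR adjusted p = 4.42e-05).

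*TCH2* and its paralog *CML23* act together in nitric oxide accumulation and in the timing of flowering, and they showed the smallest changes of the abundant members. WT had 408 and 391 CPM of *TCH2*, *val1* 338 and 331 and the libraries labelled *val2* 453 and 450.4. The groups did not overlap, and the fall in *val1* was 1.19-fold, a log2 fold change of -0.26 (standard error 0.0667, edgeR adjusted p = 0.0123). This call was lost without WT replicate 1 (-0.23, edgeR adjusted p = 0.0696), without *val1* replicate 2 (-0.24, edgeR adjusted p = 0.0562) and with scaling by library size alone (-0.043, edgeR adjusted p = 0.62). The last scaling moved the median of all genes tested from 0.038 to 0.252, and relative to that median *TCH2* was at -0.295 under both scalings. Of *CML23*, WT had 32.8 and 31.5 CPM, *val1* 32.0 and 36.6 and the libraries labelled *val2* 37.5 and 33.5. Its log2 fold change in *val1* did not pass the test, at 0.096 with a 95% interval from -0.13 to 0.32 (edgeR adjusted p = 0.457), and with scaling by library size alone it did (0.31, edgeR adjusted p = 0.024).

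*CML41*, which promotes callose at plasmodesmata during immunity, and *CML43*, which is induced by pathogens, were near or below what these libraries can measure. There were 23 and 26 counts of *CML41* in WT, 22 and 13 in *val1* and 20 and 21 in the libraries labelled *val2*. The groups WT and *val1* overlapped. The 95% interval of the log2 fold change of *CML41* ran from -1.47 to 0.60 (edgeR adjusted p = 0.466). At this depth a fall of *CML41* by more than 2-fold was thus not excluded. *CML43* had 0 counts in 4 of the 6 libraries, 3 counts in *val1* replicate 1 and 6 counts in replicate 1 of the libraries labelled *val2*. A difference in *CML43* was not detectable at this depth.

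**Figure D2:**
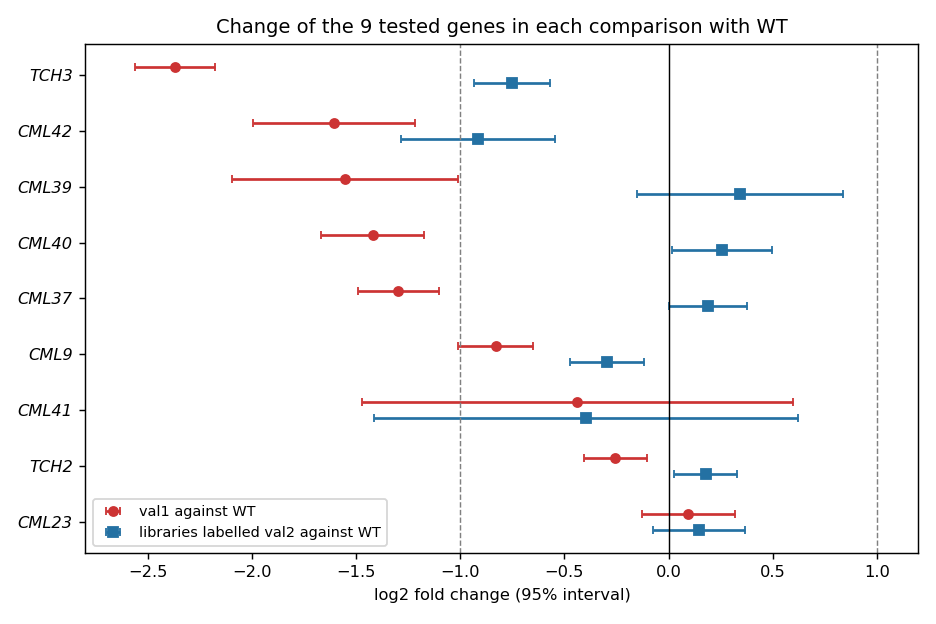
Log2 fold change of the 9 tested genes in *val1* against WT (red circles) and in the libraries labelled *val2* against WT (blue squares), on the horizontal axis, with 95% intervals from edgeR; the dashed lines mark a 2-fold change. *TCH3*, at -2.37 and -0.75, and *CML42*, at -1.60 and -0.91, pass the test in both, while *CML37*, *CML39* and *CML40* pass it in *val1* only.

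The libraries labelled *val2* were compared with the same 2 WT libraries, so both comparisons with WT share their controls. Of the 9 tested genes, 3 fell and 0 rose, where 10.0% of all genes tested fell and 8.69% rose. None of the 9 was a DEG, where 2.27% of all genes tested were lower DEGs and 0.918% were higher DEGs, and 6 of the 9 had an unadjusted p below 0.05 in edgeR, as did 33.3% of all genes tested. The median log2 fold change of the 9 genes was 0.15, against 0.00016 over all genes tested. The genes that fell were *TCH3*, *CML9* and *CML42*.

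*TCH3* fell 1.69-fold, with a log2 fold change of -0.75 (standard error 0.0805, edgeR adjusted p = 0.000735), and it kept this call in every alternative tried. *CML42* fell 1.88-fold, with a log2 fold change of -0.91 (standard error 0.163, edgeR adjusted p = 0.00667). The call of *CML42* was lost without WT replicate 2 (-0.67, edgeR adjusted p = 0.0588), the WT library with the higher value, and without replicate 2 of the libraries labelled *val2* (-0.86, edgeR adjusted p = 0.0503). *CML9* fell 1.23-fold, with a log2 fold change of -0.29 (standard error 0.078, edgeR adjusted p = 0.0313), and its call was lost whenever a WT library or a library labelled *val2* was left out, with edgeR adjusted p-values from 0.102 to 0.161. It was also lost with scaling by library size alone (-0.22, edgeR adjusted p = 0.0941) and on TPM (-0.23, limma adjusted p from 0.056 to 0.0602).

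For 5 members, *TCH2*, *CML23*, *CML37*, *CML39* and *CML40*, both libraries labelled *val2* lay above both WT libraries, as in 31.1% of all genes tested, but none passed the test. The other 4 lay below WT in both libraries, as did 30.8% of all genes tested. *CML40* had a log2 fold change of 0.26 with a 95% interval from 0.018 to 0.50 (edgeR adjusted p = 0.124). On the deposited TPM values, with limma on log2(TPM + 1), the same difference of *CML40* was 0.56 and passed (limma adjusted p = 0.00252). *CML37* had a log2 fold change of 0.19 (edgeR adjusted p = 0.149), *TCH2* 0.18 (edgeR adjusted p = 0.0984), *CML39* 0.34 (edgeR adjusted p = 0.315) and *CML23* 0.15 (edgeR adjusted p = 0.339). *CML41* was at -0.40 (edgeR adjusted p = 0.586).

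Since a call in only 1 group does not show a difference between groups, *val1* was also compared directly with the libraries labelled *val2*. Of the 9 tested genes, 7 were lower in *val1* and 0 were higher, where 18.0% of all genes tested were lower and 17.7% were higher. The lower DEGs were *TCH3*, *CML37*, *CML39* and *CML40*, or 4 of 9, where 6.94% of all genes tested were lower DEGs and 5.17% were higher DEGs. In the 7 lower genes both *val1* libraries lay below both libraries labelled *val2*, as in 33.7% of all genes tested. *CML39* had the largest difference, 3.72-fold, with a log2 fold change of -1.90 (standard error 0.237, edgeR adjusted p = 0.000328). *CML40* differed 3.20-fold (-1.68, standard error 0.11, edgeR adjusted p = 8.72e-06) and *TCH3* 3.07-fold (-1.62, standard error 0.0822, edgeR adjusted p = 3.39e-06). *CML37* differed 2.80-fold, with a log2 fold change of -1.49 (standard error 0.0852, edgeR adjusted p = 5.16e-06).

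*TCH2* differed 1.35-fold, with a log2 fold change of -0.43 (standard error 0.0668, edgeR adjusted p = 0.00105), a larger difference than the one between *val1* and WT, since its values in the libraries labelled *val2* were the highest of the 6. On the deposited TPM values the same difference did not pass under any of the 3 settings (-0.31, limma adjusted p from 0.492 to 0.521). *CML9* differed 1.45-fold (-0.54, standard error 0.0787, edgeR adjusted p = 0.000824). *CML42* differed 1.61-fold (-0.69, standard error 0.174, edgeR adjusted p = 0.0139), a call that was lost without *val1* replicate 1 (-0.66, edgeR adjusted p = 0.0555) and without replicate 1 of the libraries labelled *val2* (-0.64, edgeR adjusted p = 0.0688). *CML23* (-0.050, 95% interval from -0.27 to 0.17) and *CML41* (-0.042, 95% interval from -1.09 to 1.01) did not pass the test.

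Across the 6 libraries the members followed each other to different degrees. The Pearson correlation of log2 CPM was 0.98 between *TCH3* and *CML9*, 0.94 between *TCH3* and *CML42*, and 1.00 between *CML37* and *CML40*. It was 0.16 between the paralogs *TCH2* and *CML23*. These points share 3 genotypes and the same libraries, and the values are a description over n = 6. By the same measure, the genes most like *TCH3* among 15572 genes with a mean of at least 5 CPM were AT1G75000 (0.9996), *CK1* (0.9995) and AT1G20110 (0.9995). The genes most like *TCH2* were *ELM1* (0.9992), AT5G52020 (0.9991) and AT5G57100 (0.9988). AT5G52020 had a log2 fold change of -1.24 in *val1*, where *TCH2* itself was at -0.26, so a high correlation here does not mean an equal change.

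Several members lie beside another calmodulin or CML gene, which puts each gene next to one with a related coding sequence and the same chromosome region. On chromosome 2, *TCH3* lies at 17137037-17139700 on the plus strand, 37 bases after AT2G41090 and 482 bases before the calmodulin gene *CAM2*. *CAM2* fell in *val1* as *TCH3* did, from 208 and 229 CPM in WT to 90.4 and 79.3 CPM, or by 1.36 on the log2 scale (standard error 0.0944, edgeR adjusted p = 7.23e-06). AT2G41090, on the other side, moved the opposite way. Its level went from 173 and 147 CPM in WT to 228 and 192 CPM in *val1*, a rise of 0.39 on the log2 scale (standard error 0.115, edgeR adjusted p = 0.0224). This call was lost without WT replicate 2 (0.27, edgeR adjusted p = 0.149) and without *val1* replicate 1 (0.26, edgeR adjusted p = 0.144).

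On chromosome 1, *CML39* lies at 28765254-28765866 on the minus strand, 883 bases from *CML38*, which is induced by hypoxia and wounding. WT had 455 and 474 CPM of *CML38*, *val1* 122 and 111 and the libraries labelled *val2* 446 and 436. It fell 3.99-fold in *val1*, with a log2 fold change of -1.997 (standard error 0.0776, edgeR adjusted p = 8.82e-07), and was at -0.077 in the libraries labelled *val2* (edgeR adjusted p = 0.521). In *val1* against the libraries labelled *val2* it was at -1.92 (edgeR adjusted p = 1.74e-06), so *CML38* and *CML39* were both low in *val1* alone.

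*TCH2*, on chromosome 5 at 14997514-14999619, is 4846 bases from *CAM1*, and *CML23*, on chromosome 1 at 24770419-24771393, is 2719 bases from *CAM4*. Neither calmodulin gene passed the test in *val1*. *CAM1* was at 76.3 and 81.2 CPM in WT and at 73.5 and 71.9 CPM in *val1* (edgeR adjusted p = 0.214), and *CAM4* was at 133 and 135 CPM in WT and at 144 and 137 CPM in *val1* (edgeR adjusted p = 0.468). Both rose in the libraries labelled *val2*, *CAM1* by 0.41 (standard error 0.0705, edgeR adjusted p = 0.0058) and *CAM4* by 0.38 (standard error 0.0728, edgeR adjusted p = 0.00901) on the log2 scale. The call of *CAM4* there was lost without WT replicate 2 (0.39, edgeR adjusted p = 0.0526) and without replicate 1 of the libraries labelled *val2* (0.34, edgeR adjusted p = 0.0698).

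**Figure D3:**
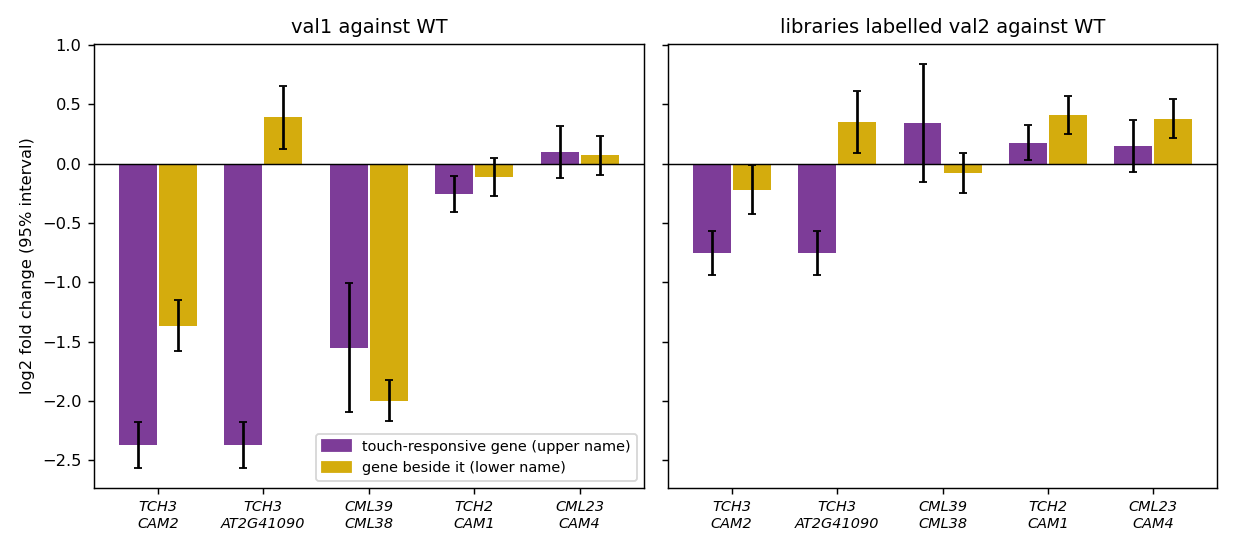
Log2 fold change (bars, with 95% intervals from edgeR) of a touch-responsive gene (purple, upper name) and of the calmodulin or CML gene beside it (yellow, lower name), in *val1* against WT (left) and in the libraries labelled *val2* against WT (right). In *val1*, *TCH3* and *CAM2* are at -2.37 and -1.36 and *CML39* and *CML38* at -1.55 and -1.997, while AT2G41090 is at 0.39.

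Shared sequence and overlapping genes can limit some of these values, and their effect on the counts was not tested. Of the 50-base words of the exons, 0 occurred outside the gene for 9 of the 10 members, and 0.375% did for *TCH3*. A further 6.33% of the words of *TCH3* were repeated only within *TCH3* itself. Overlaps were taken between whole gene spans, introns included, and all are on opposite strands. *CML40* overlaps AT3G01840, with 160 to 303 counts per library, over 2067 bases. Its exons cover 1303 bases, so part of this overlap lies outside them. *TCH3* overlaps AT2G41105, with 55 to 85 counts, over 827 bases. *TCH3* also overlaps AT2G09220 over 342 bases, and *TCH2* overlaps AT5G37760 over 723 bases. The last 2 overlapping genes are not in the count table. The library kit keeps the strand, and whether the counting used it is not given in the sources used here. *TCH3* has 7 annotated transcripts with 7 different starts in RefSeq.

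The deposited TPM table holds 7 of the 10 members and lacks *CML23*, *CML41* and *CML43*. In it *TCH2* did not separate the genotypes. The TPM of *TCH2* were 392 and 653 in WT, 646 and 352 in *val1*, and 444 and 788 in the libraries labelled *val2*, so that all 3 groups overlapped. On log2(TPM + 1) the change of *TCH2* in *val1* was -0.085 (limma adjusted p = 0.847). The median of all genes in that setting, with a mean TPM of at least 1, was 0.285, against 0.038 on the counts. RefSeq lists 2 transcripts of *TCH2*, of 910 and 1737 bases, and whether they bear on the TPM values was not tested. The other 6 genes of that table, *TCH3*, *CML9*, *CML37*, *CML39*, *CML40* and *CML42*, fell in *val1* on the TPM scale as well.

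**Figure D4:**
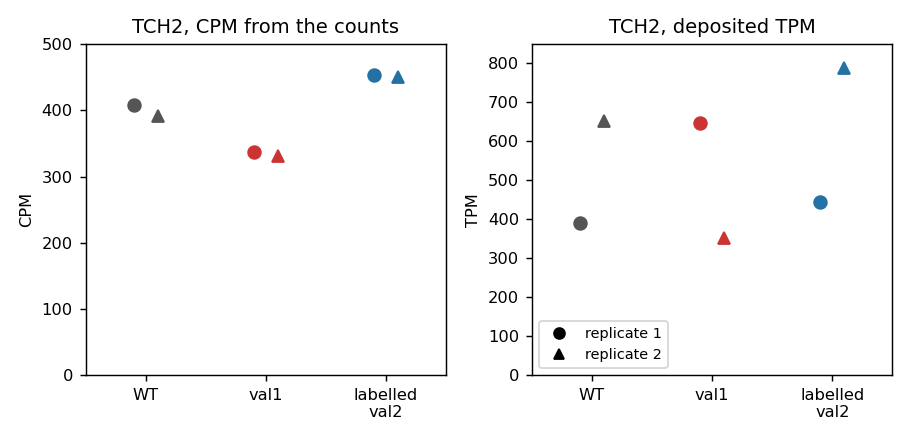
*TCH2* in each library as CPM computed from the counts (left) and as deposited TPM (right), with circles for replicate 1 and triangles for replicate 2 and both vertical axes from 0. CPM lies between 331 and 338 in *val1* and between 391 and 408 in WT, while TPM spreads from 352 to 646 within *val1*.

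The rest of the calcium and touch pathway was read from lists of known genes, described by counts and medians. Of the 7 calmodulin genes, 2 fell in *val1* and 0 rose, where 22.1% of all genes tested fell and 23.6% rose. Their median log2 fold change was -0.0035, against 0.038 over all genes tested. The genes that fell were *CAM2* (-1.36) and *CAM3* (-0.56, edgeR adjusted p = 0.000415). Of 39 other CML genes, 28 are in the count table and 23 were tested, of which 13 fell and 2 rose in *val1*, with a median of -0.42. AT3G10300, which went from 479 and 486 CPM in WT to 90.8 and 95.4 CPM in *val1*, was at -2.37 (edgeR adjusted p = 5.19e-07), and *CML11* was at -2.24 (edgeR adjusted p = 6.77e-06). The genes that rose were AT3G10190, from 3.65 and 3.33 CPM in WT to 24.9 and 23.2 CPM in *val1* (2.79, edgeR adjusted p = 4.62e-05), and AT2G41090. In the libraries labelled *val2*, 2 of the 23 fell and 0 rose, where 10.0% of all genes tested fell and 8.69% rose.

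Of 30 other genes that respond rapidly to touch and wounding, 19 fell and 8 rose in *val1*, beside 22.1% and 23.6% of all genes tested. The median log2 fold change of the 30 was -0.96. *XTH23*, a cell wall xyloglucan enzyme of the family of *TCH4*, fell from 402 and 465 CPM in WT to 41.9 and 49.2 CPM in *val1*, at -3.25 (edgeR adjusted p = 7.76e-07). *JAZ8*, a repressor of jasmonate signaling, was at -2.42 (edgeR adjusted p = 6.73e-07) and the defence regulator *WRKY18* at -2.37 (edgeR adjusted p = 5.92e-07). *TCH4* itself, named after its values were seen, went from 2376 and 2456 CPM in WT to 1030.4 and 1156 CPM in *val1* and was at -1.14 (edgeR adjusted p = 4.11e-06). Some genes of this list rose. Among those with a mean of 5 CPM or more, the largest rises were those of the cold regulators *CBF2* (1.72, edgeR adjusted p = 2.43e-05) and *CBF1* (1.63, edgeR adjusted p = 0.000378) and of *ERF5* (1.47, edgeR adjusted p = 1.79e-05), a regulator of stress and defence genes. In the libraries labelled *val2*, 3 of the 30 fell and 5 rose, where 10.0% of all genes tested fell and 8.69% rose. All of these rises lost their call without WT replicate 2 or without replicate 1 of the libraries labelled *val2*. Most of them lost it without WT replicate 1.

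The CAMTA factors, which bind the CGCG box, also fell in *val1*. Of the 6 genes, 5 fell and 0 rose, where 22.1% of all genes tested fell and 23.6% rose. The median log2 fold change of the 6 was -0.996. *CAMTA3* went from 313 and 298 CPM in WT to 81.2 and 88.3 CPM in *val1*, at -1.85 (edgeR adjusted p = 1.33e-06). *CAMTA2* was at -1.35 (edgeR adjusted p = 4.11e-06) and AT1G67310 at -1.15 (edgeR adjusted p = 6.31e-06). In the libraries labelled *val2*, 2 of the 6 fell, beside 10.0% of all genes tested. *CAMTA3* fell by 0.38 (edgeR adjusted p = 0.0153) and AT1G67310 by 0.44 (edgeR adjusted p = 0.00572) on the log2 scale. Without replicate 1 of that group neither kept its call (-0.30 and -0.38). *CAMTA3* also lost it without WT replicate 1 (-0.34) and without WT replicate 2 (-0.41). Of the members with CGCG in their window, *val1* had *TCH2* at -0.26, *CML9* at -0.83, *CML23* at 0.096 and *CML40* at -1.42. Of the tested members without it, *TCH3* was at -2.37, *CML37* at -1.30, *CML39* at -1.55, *CML41* at -0.44 and *CML42* at -1.60. The part of the CAMTA factors in these changes was not tested.

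Transcripts for calcium channels and mechanosensors, and for calcium pumps and exchangers, moved in both directions. Of 9 genes for calcium channels and mechanosensors, 3 rose and 3 fell in *val1*, where 23.6% of all genes tested rose and 22.1% fell. The median log2 fold change of the 9 was 0.15. *MSL10*, a mechanosensitive channel, rose from 28.9 and 23.9 CPM in WT to 63.7 and 58.9 CPM in *val1* (1.22, edgeR adjusted p = 2.58e-05), and AT2G48060 (0.50, edgeR adjusted p = 0.00136) and the glutamate receptor-like gene *GLR3.6* (0.37, edgeR adjusted p = 0.0288) rose by less than 2-fold. The call of *GLR3.6* was lost in DESeq2 (0.34, DESeq2 adjusted p = 0.0719) and without WT replicate 2, *val1* replicate 1 or *val1* replicate 2 (edgeR adjusted p from 0.0682 to 0.18). *MCA2*, needed for calcium uptake, was at -1.14 (edgeR adjusted p = 0.000117), the receptor kinase gene *FER* at -1.05 (edgeR adjusted p = 1.48e-05) and AT4G04340 at -0.73 (edgeR adjusted p = 0.000149). Of 7 genes for calcium pumps and exchangers, 6 fell and 1 rose, with a median of -0.81. The Ca2+-ATPase genes *ACA10* (-1.57, edgeR adjusted p = 7.4e-06), *ACA2* (-1.23, edgeR adjusted p = 5.22e-06) and *ACA8* (-1.11, edgeR adjusted p = 3.43e-05) fell most, and the vacuolar exchanger gene *CAX1* rose (0.62, edgeR adjusted p = 0.00149).

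**Figure D5:**
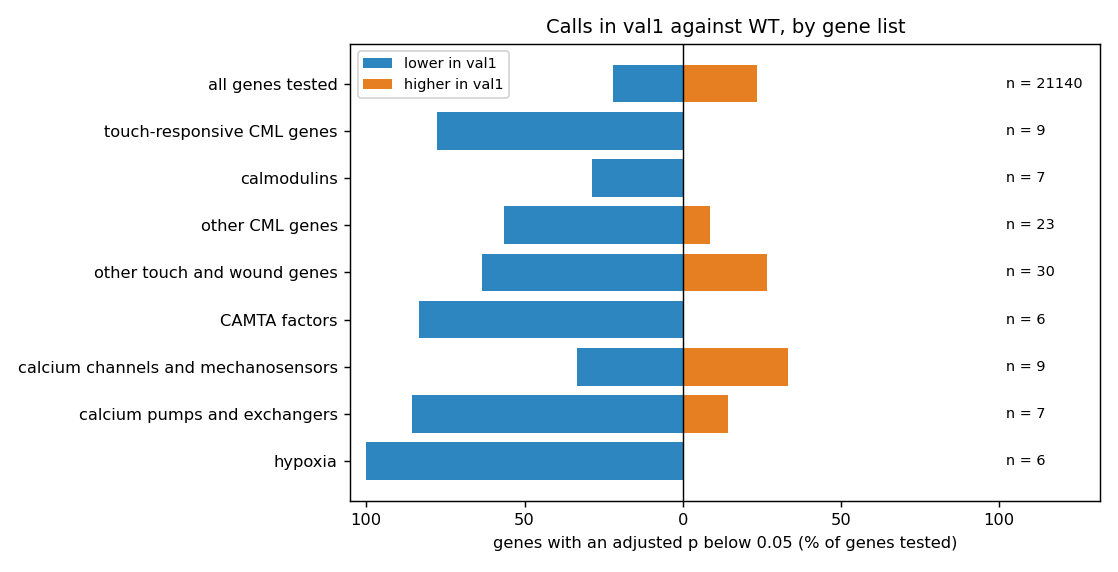
Share of the genes of each list, among those tested, that passed an adjusted p below 0.05 in *val1* against WT in edgeR, with lower genes to the left (blue) and higher genes to the right (orange) and the number tested at the right edge. Of the touch-responsive CML genes 7 of 9 are lower and 0 higher, beside 22.1% lower and 23.6% higher over all genes tested.

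Other groups moved in the same libraries as the members. Of 5 leaf markers, 5 rose in *val1*, as did 23.6% of all genes tested. The summed level of the markers was 7367 to 7879 CPM in WT and 9136 to 9358 CPM in *val1*. It was 6435 to 6735 CPM in the libraries labelled *val2*. Without WT replicate 2 or *val1* replicate 2, 3 of the 5 passed. The part of these markers in the fall of *TCH3*, *CML37*, *CML39*, *CML40* and *CML42* was not tested. Of 6 hypoxia genes, 6 fell in *val1* and 4 fell in the libraries labelled *val2*, beside 22.1% and 10.0% of all genes tested. The largest falls in *val1* were those of the fermentation gene *PDC1* (-3.27, edgeR adjusted p = 1.65e-06), *LBD41* (-1.74, edgeR adjusted p = 3.77e-05) and the haemoglobin gene *HB1* (-1.13, edgeR adjusted p = 2.69e-05). The summed level of the 6 hypoxia genes was 862 to 924 CPM in WT and 273 to 318 CPM in *val1*. It was 450.3 to 496 CPM in the libraries labelled *val2*. The part of the hypoxia genes in the fall of the members was not tested.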

How the data were processed

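RNA-seq was analysed in 6 libraries of shoot apices, 2 each of WT, *val1* and the libraries labelled *val2*, grouped by their titles. The estimated counts deposited by the authors came from reads trimmed with cutadapt, mapped to TAIR10 with STAR and assigned to Araport11 genes with StringTie, collected as whole numbers and not normalized; tool versions are not given in the sources used here. The authors used DESeq2 for their own tests. The TPM values deposited by the authors came from the same estimates, for 16383 genes, and served as an alternative.

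In the count table, 77 entries without a gene identifier, with 0.00191% to 0.00266% of the counts, were left out. Depth over the remaining 24292 genes ranged from 22635808 to 33474422 counts. Counts were tested in R 4.3.3 with edgeR 4.0.16 (filterByExpr by genotype, TMM factors from 0.925 to 1.09, 1 quasi-likelihood fit of the 6 libraries with 3 residual degrees of freedom), and 21140 genes were tested. The biological coefficient of variation was 10.7%. A chi-square per gene of 9.22 to 11.8 showed replicates of a genotype to differ by more than counting error. A DEG combined an adjusted p under 0.05 with a change of 1 or more, either way, on the log2 scale. The alternatives used DESeq2 1.42.0, other scalings, filters and thresholds, only the 2 genotypes compared, a replicate block, each library left out, and limma 3.58.1 on log2(TPM + 1) or log2(TPM + 0.1). The self-test ran on simulated data.

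Positions, exon lengths and sequences were taken from RefSeq TAIR10.1, in which 99.6% of the genes of the count table were found. Plots were drawn in Python 3.11.15 with matplotlib 3.10.9.

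The text names the 10 members, *VAL1* and *VAL2*, the 5 calmodulin or CML genes beside a member, and, of every other list, up to 3 genes per direction with the largest change among those past the adjusted p in *val1* whose mean was 5 CPM or more, and the 3 genes most correlated with *TCH2* and with *TCH3*. Genes without a name in the reference are given by identifier. The list of members, whose rule uses identifiers and no threshold on values, and the other lists were drawn up with earlier results of these data known.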

Additional observations from a re-analysis of the deposited data

How the results depend on the processing

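Each comparison was recomputed under every alternative. The direct comparison is that of *val1* with the libraries labelled *val2*. Of 137 values for each comparison, 128 kept their direction and side of the threshold in *val1* against WT, 122 in the libraries labelled *val2* against WT and 126 in the direct comparison. In *val1* against WT between 5 and 7 members were lower DEGs or lower at any fold, and 0 were higher DEGs, under every alternative. With no fold-change threshold the genes called higher and lower were 4988 and 4673 against WT in *val1*, 1838 and 2118 in those labelled *val2*, and 3748 and 3804 in the direct comparison, and the members called lower were 3 in the libraries labelled *val2* and 7 in the direct comparison. With library size alone, 1976 genes were higher in *val1*, and the log2 fold changes of the direct comparison were 0.085 for *CML23* and 0.095 for *CML41*, neither of which had passed the test. That scaling moved the median of all genes tested from 0.0117 to 0.148 there, and relative to the median *CML23* was at -0.0627 and *CML41* at -0.0535, against -0.0621 and -0.0542 before. Under that scaling 1 member passed as higher in each comparison with WT, *CML23* in *val1* and *TCH2* in the libraries labelled *val2*, 4 calmodulins and 4 other CML genes passed as higher in *val1*, *CAM1* was at 0.098 in *val1* (median of all genes 0.252) and *CML38* at 0.0012 in the libraries labelled *val2* (median 0.0776). On log2(TPM + 1), with a mean TPM of at least 1 or with no filter, 1297 or 1307 genes were lower in *val1*, 918 or 927 lower in the direct comparison, and 108 or 110 higher and 261 or 258 lower in the libraries labelled *val2*; the TPM table tests fewer genes. On that scale, also with 0.1 in place of 1, *CAM1* was at 0.061 in *val1*, where the median of all genes was 0.134 to 0.29. *CML38* was at 0.17 in the libraries labelled *val2* (median 0.041 to 0.0556), and 1 member passed as higher there. Leaving out 1 library at a time gave 126 to 206 genes higher (126 without replicate 1 of the libraries labelled *val2*) and 262 to 525 lower in the libraries labelled *val2* (262 without WT replicate 2 or without that same replicate 1), and 0 to 1 members lower there (1 without WT replicate 1), with 1 to 3 members lower at any fold (1 without WT replicate 2 or without replicate 2 of that group). *CML23* then ranged from -0.0055 to 0.19 in *val1* and from -0.16 to 0.035 in the direct comparison, and *CML41* from -1.05 to 0.027 in *val1* and from -0.66 to 0.42 in the direct comparison. The cause of the shifts on TPM and without single libraries was not tested. The replicate block changed 1 call of a member, *CML40* in the libraries labelled *val2* (0.25, edgeR adjusted p = 0.0459). It gave 5 members lower in *val1*. Same-numbered replicates deviated together with correlations of only 0.0309 to 0.0406 over the genes. Whether libraries of the same number were grown or handled together is not given in the labels. Depth limits *CML41*, with 13 to 26 counts per library, and *CML43*.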
